A study of Homo sapiens with 6 samples.

Results

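The replication-dependent histone genes were measured by 68 of the 67528 features on each of 6 whole-transcript arrays. Members were all features whose platform gene symbols include H1-1 to H1-6, or H2AC, H2BC, H3C or H4C with a number, whatever their signal and however many genes they list. The linker histone H1 had 6 features, H2A 16, H2B 18, H3 13 and H4 15. A feature is a set of probes summarised to 1 value, and 31 of the 68 listed 1 gene while 37 listed several near-identical genes. In this text a plus sign after a gene name marks a feature that lists several genes, named by the first member gene on its list, with the feature's identifier. The features named 68 of the 69 genes of this form in the RefSeq table (assembly GRCh38.p14), and H2BC18 was named by none. By their identifiers, 54 features lie on chromosome 6, 12 on chromosome 1 and 2 on chromosome 12. The mean level over the 6 arrays was 5 or more on the log2 scale for 55 features, and 13 lay below. No detection calls were available, so 5 is a working limit below which a value may be background. Some of the 13 exceeded 5 in a line, such as H2BC3, at 5.65 and 6.26 in UT7-5.3.

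The 37 features with several genes fall into 9 gene lists. The H4 list holds 14 genes (H4C1 to H4C6, H4C8, H4C9 and H4C11 to H4C16) and is shared by 13 features. The main H3 list holds 10 genes (H3C1 to H3C4, H3C6 to H3C8 and H3C10 to H3C12) and is shared by 9 features, and H3C4+ (TC06001349) adds H2AC7 to it. A list of H3C13, H3C14 and H3C15 is shared by 3 features. The H2A lists are H2AC11, H2AC12, H2AC13, H2AC15, H2AC16 and H2AC17 (3 features), H2AC4 and H2AC8 (2 features), H2AC18 and H2AC19 (2 features), and H2AC20 with H2AJ (1 feature). The H2B list holds H2BC4, H2BC6, H2BC7, H2BC8 and H2BC10 (3 features). The first gene of a list is a name here and need not be the locus measured, since H4C15+ (TC06001424) has a chromosome 6 identifier while H4C15 lies on chromosome 1.

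The arrays came from 3 human leukaemia cell lines in proliferation. K562 derives from a chronic myeloid leukaemia with erythroid features. UT7-5.3 is a cytokine-dependent subline of megakaryoblastic UT-7 cells, grown with GM-CSF. MV4-11 derives from an acute leukaemia with monocytic features. Every culture carried a lentiviral vector, which expressed either an shRNA against CXXC5 mRNA (shRINF, RINF being another name of CXXC5) or a control shRNA (shcontrol). CXXC5 belongs to the CXXC family of zinc finger proteins, which recognise unmethylated CpG in DNA. Each line gave 1 array per shRNA, so each group held 3 arrays, the line was the replicate, and no line had a second culture or a second shRNA. The time after transduction is not in the labels. The comparison asks which transcripts differ when CXXC5 is lowered.

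Replication-dependent histone genes supply the proteins that package new DNA. They are transcribed in S phase, with the coactivator NPAT acting downstream of cyclin E and CDK2. Their short, intronless transcripts end in a stem-loop bound by SLBP rather than in a poly(A) tail, and they are degraded when replication stops. H2A pairs with H2B and H3 with H4 to form the nucleosome core, and H1 binds the linker DNA. The labelling kit used on these samples primes along whole transcripts, so a poly(A) tail is not required.

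Promoters of the members share short elements that differ between the families. The sequences below, from RefSeq (GRCh38.p14), run from 250 bases before to 50 bases from the transcript start on. They show an H2B gene of low level with the largest mean difference (H2BC3, chr6:26043664-26043963, minus strand), an H2B gene that differed widely between lines (H2BC14, chr6:27814772-27815071, plus strand), an H2A gene (H2AC6, chr6:26123922-26124221, plus strand) and a pair of H1 genes on opposite sides of 0 (H1-5, chr6:27867539-27867838, minus strand, and H1-6, chr6:26108086-26108385, minus strand). Capitals mark motif matches on either strand. The TATA box, which places the transcript start, was searched as TATAAA. Matches anywhere in the window were marked, so a match need not be the TATA box of the gene named. In H2BC14 the only match is TTTATA, far from the transcript start. Other letters, such as tatataa in H1-5 and H1-6, were not marked, so a missing mark does not show that a TATA box is absent. The core of the octamer, the site known from H2B genes, was searched as ATGCAAA. The H1 box of linker histone genes was searched as AAACACA. The element bound by the factor NF-Y was searched as CCAAT.
H2BC3: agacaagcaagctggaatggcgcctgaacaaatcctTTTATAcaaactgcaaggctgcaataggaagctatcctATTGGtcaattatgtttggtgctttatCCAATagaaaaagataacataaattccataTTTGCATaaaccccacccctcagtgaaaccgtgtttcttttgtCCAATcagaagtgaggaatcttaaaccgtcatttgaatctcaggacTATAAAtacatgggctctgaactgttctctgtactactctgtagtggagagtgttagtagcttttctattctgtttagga
H2BC14: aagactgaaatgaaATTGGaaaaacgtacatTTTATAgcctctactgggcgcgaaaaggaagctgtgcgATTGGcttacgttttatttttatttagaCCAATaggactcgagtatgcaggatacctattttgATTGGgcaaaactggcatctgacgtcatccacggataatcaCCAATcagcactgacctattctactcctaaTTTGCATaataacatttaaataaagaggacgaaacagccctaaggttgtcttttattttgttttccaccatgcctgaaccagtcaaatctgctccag
H2AC6: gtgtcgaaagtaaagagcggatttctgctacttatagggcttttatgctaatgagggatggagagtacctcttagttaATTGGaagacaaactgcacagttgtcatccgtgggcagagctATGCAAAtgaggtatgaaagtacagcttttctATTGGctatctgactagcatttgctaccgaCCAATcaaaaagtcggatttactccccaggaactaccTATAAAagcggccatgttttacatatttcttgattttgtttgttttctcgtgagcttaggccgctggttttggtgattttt
H1-5: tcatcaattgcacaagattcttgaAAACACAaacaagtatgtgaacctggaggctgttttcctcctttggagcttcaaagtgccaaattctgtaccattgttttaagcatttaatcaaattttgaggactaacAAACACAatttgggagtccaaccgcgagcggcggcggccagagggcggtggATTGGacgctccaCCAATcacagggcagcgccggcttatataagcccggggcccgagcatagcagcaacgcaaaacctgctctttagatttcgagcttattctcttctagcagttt
H1-6: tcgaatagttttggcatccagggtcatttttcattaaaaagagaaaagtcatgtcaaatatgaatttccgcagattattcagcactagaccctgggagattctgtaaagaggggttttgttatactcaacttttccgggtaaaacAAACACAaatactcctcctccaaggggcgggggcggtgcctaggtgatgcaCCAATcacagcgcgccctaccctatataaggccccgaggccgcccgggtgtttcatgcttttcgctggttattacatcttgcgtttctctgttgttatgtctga

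Promoter windows were matched for 63 of the 68 member genes. TATAAA stood in 66.7% of them, against 12% of all 27305 promoter windows of this length. CCAAT stood in 84.1% against 35.7%. All H1, H2A, H2B and H3 windows held CCAAT, whereas 3 of 13 H4 windows did. ATGCAAA stood in 11 of 16 H2A windows and 13 of 17 H2B windows, in 1 of 11 H3 windows and in no H1 or H4 window, against 4.51% of all windows. AAACACA stood in 6 of 6 H1 windows against 5.76% of all. The H3 window with ATGCAAA is that of H3C4, which is the same window as that of H2AC7. It is therefore counted in both families, and its match cannot be credited to an H3 gene. Each motif was counted on its own, so matches of different motifs may share letters, and windows of facing genes overlap. A match describes the letters and is not evidence of a bound factor.

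CXXC5 itself was lower with shRINF in each line. Its level went from 8.40 to 7.95 in K562, from 8.42 to 7.76 in UT7-5.3 and from 8.58 to 7.95 in MV4-11, a mean difference of -0.58 ± 0.11 log2 units (SD, n = 3 lines). In limma across all 67528 features, with the line as a block, its Benjamini-Hochberg adjusted p was 0.806 and its unadjusted p 2.25e-04. GATA1, the erythroid transcription factor, lay at 10.39 and 10.45 in K562, 9.81 and 9.83 in UT7-5.3 and 5.94 and 5.62 in MV4-11. FLT3, a receptor of MV4-11, lay at 9.88 and 9.61 there and at 3.38 to 3.5 in the other lines. The monocyte marker CD14 stayed at 4.50 to 4.63 on all arrays. Not every listed marker was highest in its line. CSF2RA, listed for UT7-5.3, lay at 7.95 and 7.85 there and at 8.58 and 8.29 in MV4-11. TAL1 and EPOR, listed for K562, lay at 7.38 and 6.99 there with shcontrol and at 7.87 and 7.49 in UT7-5.3. EPOR was listed for UT7-5.3 as well. EPCAM, listed for epithelial cells, lay at 7.71 and 7.70 in K562 and at 3.53 to 3.63 in the other lines. Some line markers differed with shRINF: in MV4-11, LYZ lay at 12.33 with shcontrol and 11.49 with shRINF and MPO at 8.88 and 9.75, and in UT7-5.3, ITGA2B lay at 8.79 and 8.21. Of the 6 MV4-11 markers with a feature of their own, 2 were higher and 4 lower in MV4-11 (median -0.08), and of the 5 UT7-5.3 markers, 1 was higher and 4 lower in UT7-5.3 (median -0.10). The part of these marker differences in the histone results was not tested. The correlation across features between a line's paired arrays was 0.993 to 0.997, and the SD of the within-line differences over all features was 0.145 for K562, 0.238 for UT7-5.3 and 0.186 for MV4-11.

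Most histone features had higher values with shRINF, but none passed the test. Of the 68 features, 45 (66.2%) were higher in all 3 lines, against 11.8% of all features. H1-6 alone was lower in all 3 lines, 1 of 68, against 14.9% of all features, and no member was after quantile normalization, median centring or cyclic loess. In limma with the line as a block, 0 of 68 features reached an adjusted p under 0.05 in either direction, against 0% of all features, and the members' adjusted p ranged from 0.806 to 0.988. At an unadjusted p under 0.05, 34 of 68 (50%) were higher against 2.92% of all features, and 0 were lower against 2.74%. Among features of mean level 5 or more, 31 of 55 (56.4%) were higher at that unadjusted p, against 3.72%. The count of 34 was 12 without UT7-5.3, 11 without MV4-11 and 30 without K562. Without the line as a block, it was 0. The p-values rest on 3 lines, each with a single array per shRNA. Limma combined each feature's spread over the lines with a prior from all features (2 residual and 4.19 prior degrees of freedom). The smallest two-sided p that an exact sign-flip test of 3 pairs allows is 0.25. Features that list the same genes share probes or near-identical sequence and are not independent. In bulk RNA, more cells in S phase and more histone RNA per cell cannot be told apart.

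The size of the difference varied with the line. K562 had a median of 0.08 over the 68 features, UT7-5.3 of 0.26 and MV4-11 of 0.29, against 0, -0.03 and 0 over all features. In K562, 50 features were higher and 17 lower, against 49.5% and 46.8% of all features. In UT7-5.3, 66 were higher and 2 lower, against 42.2% and 55.9%. In MV4-11, 58 were higher and 9 lower, against 48% and 48.8%. Differences of 0.25 log2 units or more upward were found for 6 features in K562 (8.82%, against 4.37% of all), 35 in UT7-5.3 (51.5% against 11.8%) and 40 in MV4-11 (58.8% against 6.8%). Downward differences of that size were found for 2 features in K562 (against 3.93%), 0 in UT7-5.3 (against 13%) and 2 in MV4-11 (against 6.21%). At mean level 5 or more, upward differences of that size were found for 5 of 55 members in K562 (9.09% against 3.53%). There were 31 in UT7-5.3 (56.4% against 16.6%) and 36 in MV4-11 (65.5% against 7.36%). Downward at that level there were 1, 0 and 1 (against 3.19%, 18.2% and 6.16%). Of the 68, the line with the largest difference was MV4-11 for 37, UT7-5.3 for 29 and K562 for 2. That count was not made over all features, whose differences also had the smallest SD in K562 (0.145, against 0.238 in UT7-5.3 and 0.186 in MV4-11). How far it is particular to the histone features was therefore not tested. These differences rest on 1 array per group and were not tested, and the difference between lines was not tested either.

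**Figure D1:**
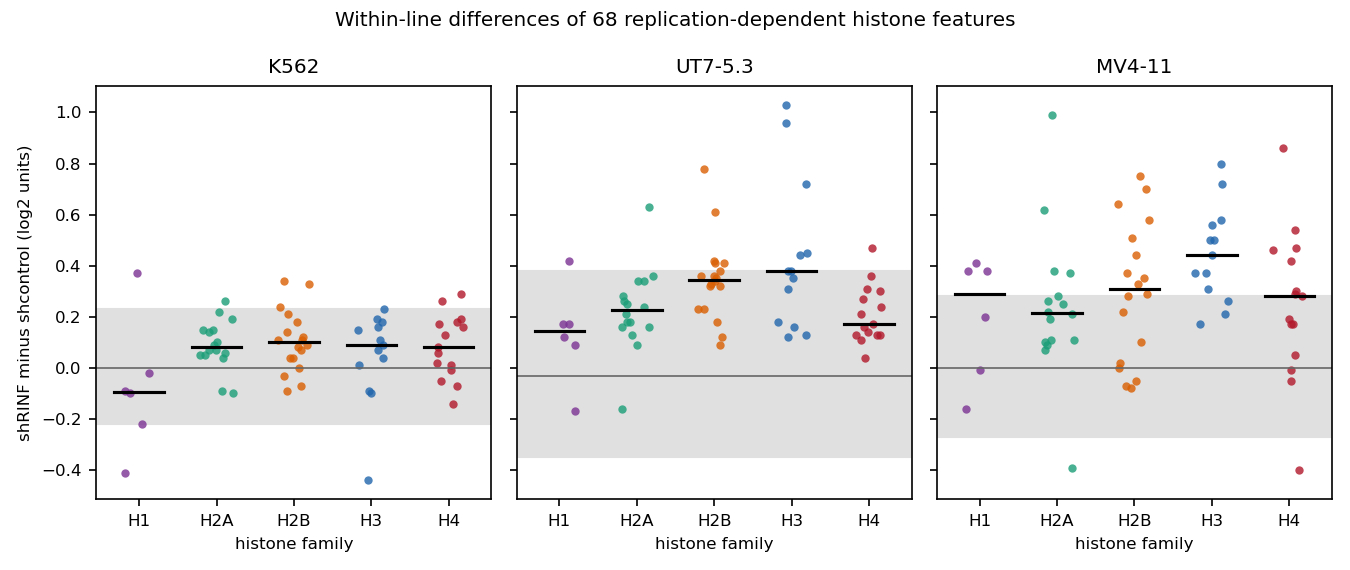
Difference between shRINF and shcontrol in log2 units (vertical axis) for each of the 68 features, by family (horizontal axis) and line (panels); black bars are family medians, and the grey band spans the 5th to 95th percentile of all 67528 features with their median as a line. In MV4-11, 34 features lie above the band, against 13 in UT7-5.3 and 7 in K562.

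Positive differences were found over most of the range of levels. Features between 7 and 8 had a median mean difference of 0.29 (12 features), against 0.02 for all features of that level, and those between 8 and 9 had 0.25 (11 features) against 0.05. The 6 features above 11, among them H2BC12 and H2AC20, had a median of 0.13, and none exceeded the 95th percentile of all features there, 0.18. The 55 features of mean level 5 or more had a median of 0.22, and the 13 below had 0.09. Features of 1 gene had a median of 0.18 and features of several genes 0.22. The chromosome 1 and chromosome 6 features had medians of 0.20 and 0.21.

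**Figure D2:**
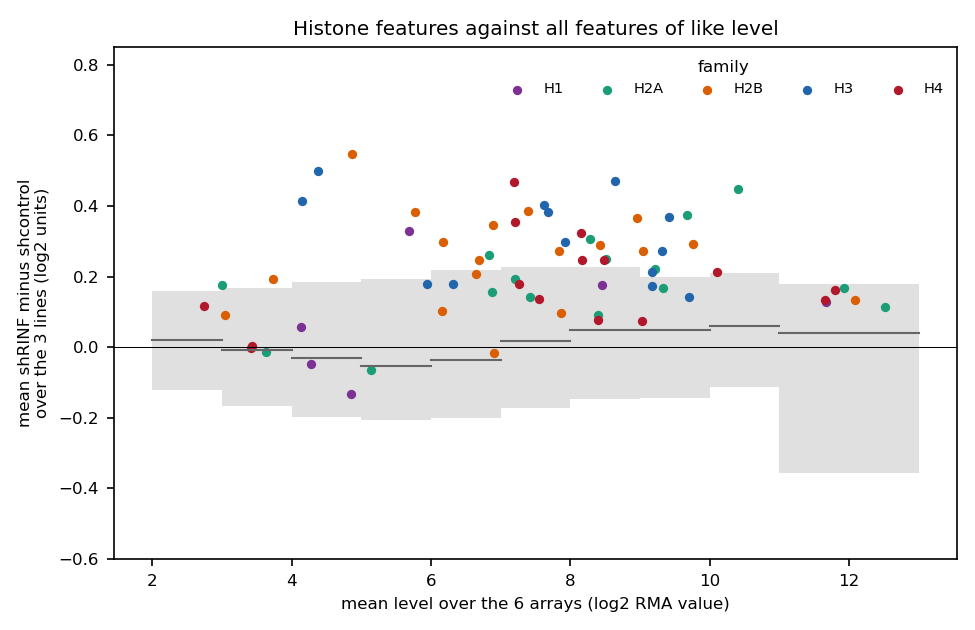
Mean difference between shRINF and shcontrol over the 3 lines (vertical axis, log2 units) against the mean level over the 6 arrays (horizontal axis, log2 RMA value), 1 point per histone feature coloured by family; grey bands and lines give the 5th to 95th percentile and the median of all features in bins of level. Most points lie above the grey median lines, and none of the 6 features above 11 leaves the band upward.

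In the sentences that follow, values are given in the order K562, UT7-5.3, MV4-11, and differences are shRINF minus shcontrol in log2 units, with the SD over the 3 lines. None of the features passed the test across lines.

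The H1 features did not move together. Their median mean difference was 0.09, and 1 of 6 (H1-5) was higher in all 3 lines, against 11.8% of all features. In K562, 5 of the 6 H1 features were lower with shRINF, against 46.8% of all features. Of these, H1-1, H1-3 and H1-6 had a mean level below 5, and H1-2 and H1-4 gave only -0.02 and -0.09. H1-5, a linker histone of proliferating cells, lay at 5.08, 5.74 and 5.76 with shcontrol and at 5.45, 6.16 and 5.96 with shRINF. It was higher in each line, by 0.33 ± 0.12 on average (95% confidence interval of limma 0.15 to 0.52, unadjusted p 0.00457). H1-2, a somatic H1, lay at 9.70, 7.90 and 7.50 with shcontrol and at 9.68, 8.07 and 7.88 with shRINF. Its difference was -0.02 in K562 and 0.38 in MV4-11. H1-4, another somatic H1, went from 12.10 to 12.01 in K562, from 11.48 to 11.57 in UT7-5.3 and from 11.25 to 11.63 in MV4-11. For both, the difference in MV4-11 was the largest of the lines. H1-6, the testis-specific linker histone whose promoter is printed above, lay at 5.38, 4.85 and 4.54 with shcontrol and at 5.16, 4.68 and 4.53 with shRINF. Its mean difference of -0.13 ± 0.11 was the lowest of all members. H1-1 lay at 4.18 to 4.45 on all arrays, near the array medians of 4.64 to 4.71, with a mean difference of -0.05 ± 0.15. H1-3 was lower by 0.41 in K562 (4.95 to 4.54) and higher by 0.41 in MV4-11 (3.41 to 3.82), below a level of 5 on every array.

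Most H2A features had small positive differences. Of 16, 13 were higher in all 3 lines (against 11.8% of all features), 7 were higher at an unadjusted p under 0.05 (against 2.92%), and the median mean difference was 0.17. H2AC6, an H2A gene with reported polyadenylated transcripts, lay at 9.23, 7.91 and 7.25 with shcontrol and at 9.33, 8.54 and 7.44 with shRINF, and its difference was largest in UT7-5.3, at 0.63. H2AC8+ (TC06000173), which lists 2 genes, went from 10.81 to 10.90, from 10.71 to 10.97 and from 9.05 to 10.04. Its difference of 0.99 in MV4-11 was the largest of any member in that line. H2AC4+ (TC06001343), with the same 2 genes on its list, went from 9.88 to 10.02, from 9.89 to 10.25 and from 8.69 to 9.31. In both features MV4-11 was lowest with shcontrol, and its gap to the other lines was smaller with shRINF. The same MV4-11 shcontrol array enters both the low level and the difference, so they are not separate evidence. H2AC21, on chromosome 1, had differences of 0.26, 0.28 and 0.21, a mean of 0.25 ± 0.04. H2AC17+ (TC06001430), which lists 6 genes, went from 7.07 to 7.14, from 6.53 to 6.87 and from 6.51 to 6.88. H2AC20 went from 12.18 to 12.33, from 11.56 to 11.81 and from 11.80 to 11.90, and H2AC19+ (TC01001174) from 12.72 to 12.79, from 12.27 to 12.43 and from 12.37 to 12.48. These features, near the top of the array's scale, were higher in every line by at most 0.25. Their means depended on the normalization. Cyclic loess gave a mean of 0.06 for H2AC20, beside 0.17, and turned that of H2AC19+ (TC01001174) to -0.0044, beside 0.11. H2AC1, a testis-specific H2A, lay below 4.5 on every array and had differences of 0.19, 0.16 and -0.39. H2AC20+ (TC12000197) also lists the variant H2AJ, has a chromosome 12 identifier and gave differences of -0.10, -0.16 and 0.07.

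H2B features gave a median mean difference of 0.27, with 12 of 18 higher in all 3 lines (against 11.8% of all features) and 11 higher at an unadjusted p under 0.05 (against 2.92%). All 18 were higher in UT7-5.3, against 42.2% of all features. H2BC3 lay at 4.35, 5.65 and 3.8 with shcontrol and at 4.68, 6.26 and 4.50 with shRINF. Its difference, 0.55 ± 0.19, was the largest mean of all members (95% confidence interval 0.32 to 0.77, unadjusted p 8.81e-04), at a mean level below 5. H2BC5, with reported polyadenylated transcripts, lay at 6.39, 6.01 and 5.69 with shcontrol and at 6.57, 6.39 and 6.02 with shRINF. H2BC21, a replication-dependent gene also expressed outside S phase as polyadenylated RNA, went from 9.11 to 9.32, from 6.82 to 7.14 and from 7.17 to 7.46. The differences of H2BC21 were alike across lines, 0.27 ± 0.06 (unadjusted p 0.00683). H2BC10 was lower by 0.07 in K562 (4.65 to 4.58) and higher in UT7-5.3 (7.71 to 8.49) and MV4-11 (4.36 to 4.80). H2BC8+ (TC06001350), which lists 5 genes, went from 8.18 to 8.26, from 7.22 to 7.55 and from 6.21 to 6.96. H2BC9 went from 7.30 to 7.41, from 7.42 to 7.77 and from 5.43 to 6.01. H2BC8+ and H2BC9 shared the order seen for H2AC8+, with MV4-11 lowest and its difference the largest. Here too the MV4-11 shcontrol array enters both the level and the difference. H2BC12 went from 12.64 to 12.71, from 11.65 to 11.88 and from 11.77 to 11.87, and H2BC7+ (TC06000171) from 10.06 to 10.18, from 9.44 to 9.85 and from 9.35 to 9.70. H2BC26, far from the main clusters on chromosome 1, gave -0.09, 0.09 and -0.05, and H2BC1, a testis-specific H2B, lay at or below 4.10 on all arrays. Of 6 listed genes with reported polyadenylated transcripts, the 5 with a feature of their own (H1-2, H2AC6, H2BC5, H2BC12 and H2BC21) had medians of 0.10, 0.32 and 0.29, beside 0.08, 0.26 and 0.29 for all members. The sixth, H2BC4, is listed only by features of several genes, of which H2BC4+ (TC06001347) gave -0.03, 0.41 and -0.07.

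H3 features had the highest family median of the mean difference, 0.30, and all 13 were higher in both UT7-5.3 and MV4-11, against 21.9% of all features. In K562, 10 of the 13 were higher, against 49.5%. H3C2+ (TC06001342), which lists 10 genes, lay at 9.66, 9.19 and 8.85 with shcontrol and at 9.89, 9.57 and 9.35 with shRINF, a difference of 0.37 ± 0.14 (unadjusted p 0.00324). H3C13+ (TC01003188), listing 3 genes of the chromosome 1 cluster, went from 7.99 to 8.18, from 7.27 to 7.65 and from 7.21 to 7.79. H3C10+ (TC06004064) went from 10.21 to 10.37, from 8.06 to 8.51 and from 6.93 to 7.73. Each of these features had its smallest difference in K562 and its largest in MV4-11. H3C1+ (TC06000162) went from 6.87 to 7.05, from 8.52 to 8.83 and from 6.87 to 7.59. The largest difference of any member in UT7-5.3 was that of H3C3+ (TC06000164), 5.66 to 6.69, while the same feature lay at 3.38 and 3.29 in K562 and at 3.33 and 3.89 in MV4-11. H3C6+ (TC06000174) was alike, at 5.04 and 6.0 in UT7-5.3 and between 3.32 and 3.57 in the other lines. H3C8+ (TC06001354) was lower in K562 (5.15 to 4.71) and higher in UT7-5.3 (7.47 to 8.19) and MV4-11 (4.96 to 5.22). The smallest SD among H3 features was that of H3C4+ (TC06001349), which lists 11 genes and gave 0.18 ± 0.03.

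H4 features had a median mean difference of 0.16, with 9 of 15 higher in all 3 lines (against 11.8% of all features) and 6 higher at an unadjusted p under 0.05 (against 2.92%). All 15 were higher in UT7-5.3, against 42.2%. H4C2+ (TC06001341), which lists 14 genes, lay at 7.55, 7.37 and 5.95 with shcontrol and at 7.73, 7.73 and 6.81 with shRINF. H4C13+ (TC06001428) went from 5.63 to 5.92, from 7.77 to 8.08 and from 7.67 to 8.13, a difference of 0.35 ± 0.09 (unadjusted p 0.00260). H4C15+ (TC01001173), on chromosome 1, went from 9.08 to 9.34, from 7.50 to 7.74 and from 7.40 to 7.87. These 3 features were higher in every line, most in MV4-11. A second chromosome 1 feature of the same list, H4C15+ (TC01003192), lay at 9.12, 7.57 and 7.46 with shcontrol and at 9.31, 7.70 and 7.88 with shRINF, close to the first on each array, and the pair is not independent evidence. H4C3, the only H4 gene of high level with a feature of its own, went from 11.84 to 11.83, from 11.79 to 11.92 and from 11.13 to 11.41. H4C15+ (TC06001424) went from 11.85 to 12.02, from 11.66 to 11.79 and from 11.63 to 11.82. H4C8+ (TC06001355) was higher in K562 (10.55 to 10.71) and UT7-5.3 (7.62 to 8.09) and lower in MV4-11 (6.89 to 6.49). H4C16+ (TC12001272) and H4C6+ (TC06000175) stayed between 3.33 and 3.53 on all arrays.

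**Figure D3:**
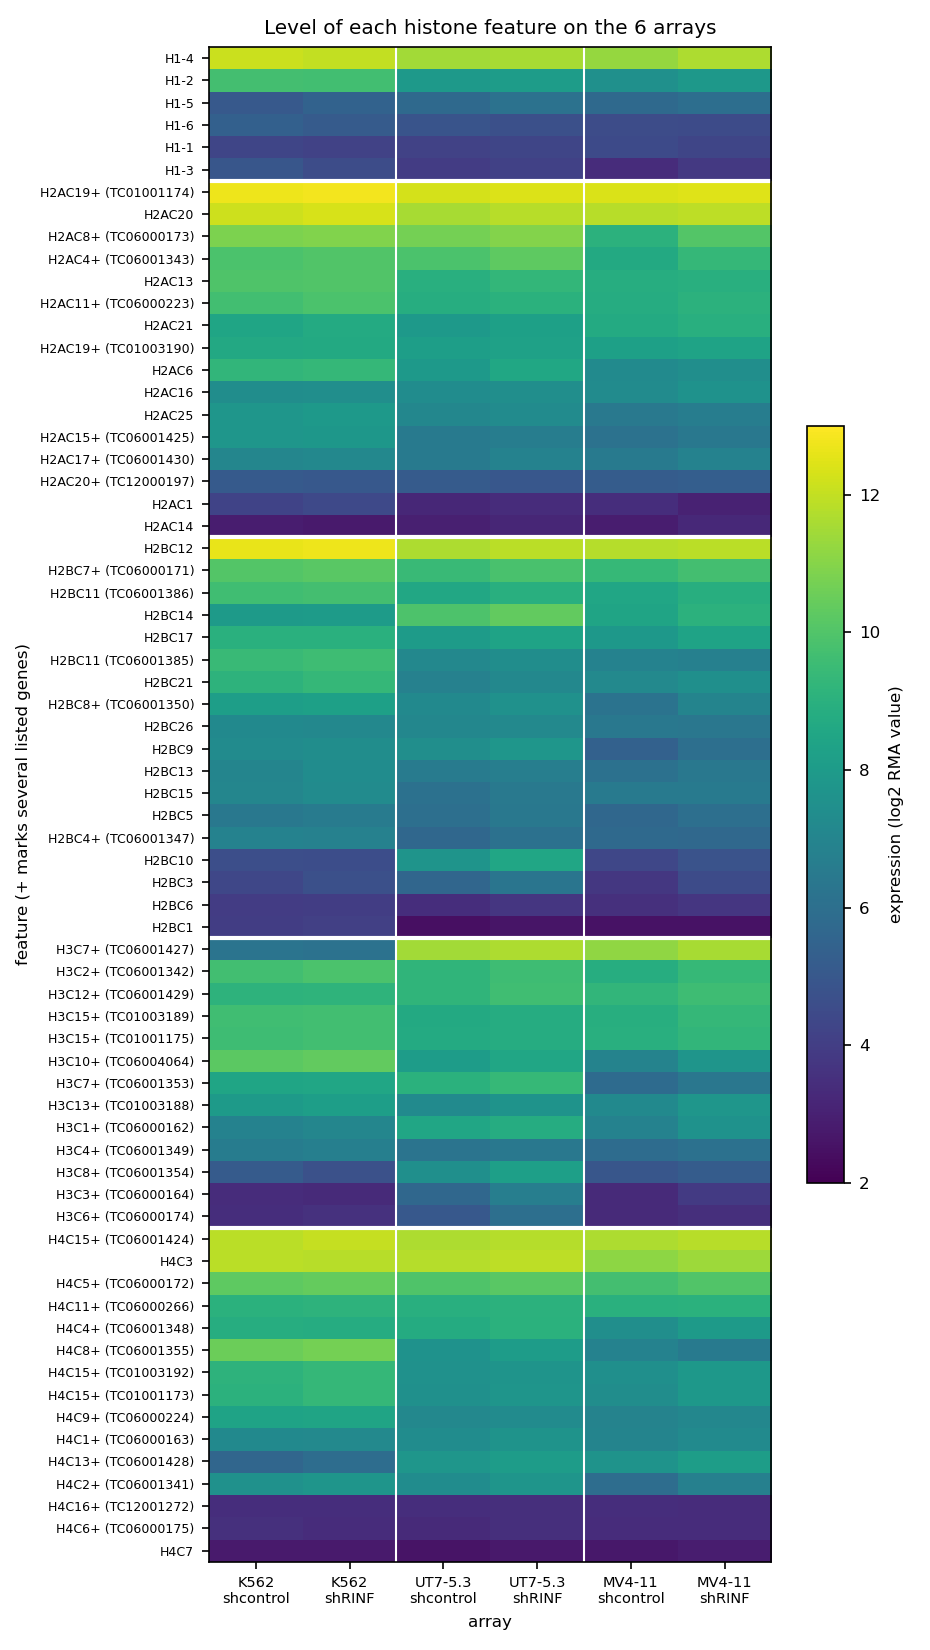
Level of each of the 68 features (rows, grouped by family and ordered by mean level) on the 6 arrays (columns), as log2 RMA values in colour; values are comparable along a row, not between rows, since probes differ. The widest changes along a row lie between lines, and 13 rows have a mean level below 5.

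Many features also differed in level between the lines. In a fit of line and shRNA, with calls at an adjusted p under 0.05 and at least 1 log2 unit, UT7-5.3 was higher than K562 for 9 of 68 features (13.2%, against 2.56% of all features) and lower for 12 (17.6% against 2.87%). MV4-11 was higher than K562 for 2 (2.94% against 4.67%) and lower for 22 (32.4% against 4.1%). MV4-11 was lower than UT7-5.3 for 14 (20.6% against 3.39%) and higher for 0 (against 4.31%). Of the 9 features higher in UT7-5.3 than in K562, 5 had a mean below 5 in K562, so their call compares a level with a value that may be background. The same held for 4 of the 14 features lower in MV4-11 than in UT7-5.3. Among the lower calls against K562, 2 in UT7-5.3 and 3 in MV4-11 were below 5 in both lines. With no fold minimum, UT7-5.3 was higher than K562 for 11 features (16.2%, against 7.91% of all) and lower for 37 (54.4% against 10%). MV4-11 was then higher than K562 for 4 (5.88% against 13%) and lower for 45 (66.2% against 12.8%), and higher than UT7-5.3 for 3 (4.41% against 13.9%) and lower for 24 (35.3% against 11%). With no fold minimum, shares of all features were larger at mean level 5 or more. MV4-11 there was lower than K562 for 41 of 55 members (74.5% against 22.4%) and higher for 4 (7.27% against 20.3%). UT7-5.3 was lower than K562 for 32 (58.2% against 17.1%) and higher for 8 (14.5% against 13%). Against UT7-5.3, MV4-11 was lower for 21 (38.2% against 19.1%) and higher for 3 (5.45% against 21.5%). The level was highest in K562 for 44 of the 68 features, in UT7-5.3 for 17 and in MV4-11 for 7. At mean level 5 or more these counts were 38, 13 and 4 of 55. The same count was not made over all features, so no share stands beside it. With shcontrol, the members had a median level of 7.99 (K562), 7.49 (UT7-5.3) and 6.93 (MV4-11). These comparisons share arrays, and the arrays of a line differ in the shRNA, so their spread is not that of separate cultures.

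The widest difference was that of H3C7+ (TC06001427). It lay at 6.23 and 6.13 in K562, at 11.48 and 11.64 in UT7-5.3 and at 11.19 and 11.56 in MV4-11, so K562 stood apart from both other lines. UT7-5.3 exceeded K562 by 5.38 log2 units (adjusted p 4.43e-06 in limma) and MV4-11 did by 5.20 (adjusted p 2.36e-06). A second feature with the same list of 10 genes, H3C7+ (TC06001353), had another order, with 8.46 and 8.50 in K562, 9.03 and 9.38 in UT7-5.3 and 5.86 and 6.36 in MV4-11. Over the 9 features that list these 10 H3 genes, the difference between UT7-5.3 and K562 ranged from -2.01 to 5.38. Features with the same gene list thus gave different patterns, and which gene each one measured was not tested.

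H4 features showed the same split. H4C13+ (TC06001428) was also lowest in K562, and UT7-5.3 exceeded it by 2.15 (adjusted p 3.18e-05). H4C8+ (TC06001355) was highest in K562, and MV4-11 was below it by 3.94 (adjusted p 3.26e-05). The 13 features listing the same 14 H4 genes ranged from -3.94 to 2.13 for MV4-11 against K562.

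Several features had their highest level in UT7-5.3. H2BC14, whose promoter is printed above, lay at 9.92 and 10.34 in UT7-5.3, at 7.98 and 8.02 in K562 and at 8.43 and 9.07 in MV4-11. UT7-5.3 exceeded K562 by 2.13 for H2BC14 (adjusted p 2.40e-04), and MV4-11 exceeded K562 by 0.75 (adjusted p 0.011). H2BC10 lay at 7.71 and 8.49 in UT7-5.3 and between 4.36 and 4.80 in the other lines, where its value cannot be told from background. H3C3+ (TC06000164) and H3C6+ (TC06000174) lay above 5 in UT7-5.3 only, and H3C8+ (TC06001354) at 7.47 and 8.19 there and between 4.71 and 5.22 in the other lines. For H2BC10 and these 3 H3 features no size of the difference is given, since 1 side may be background. The 3 H3 features also gave their largest shRINF differences in UT7-5.3. The UT7-5.3 shRINF array enters both that level and that difference.

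Others had their highest level in K562. H2BC21 was lower by 2.24 in UT7-5.3 (adjusted p 2.21e-05) and differed by -1.90 in MV4-11 (adjusted p 2.01e-05). H3C10+ (TC06004064) was lower by 2.01 in UT7-5.3 and by 2.96 in MV4-11. H1-2 was lower by 1.71 in UT7-5.3 and by 2.00 in MV4-11. H2AC6 was lower by 1.06 in UT7-5.3 and by 1.94 in MV4-11. H2AC15+ (TC06001425) was lower by 1.22 and 1.51. H2BC11 had a pair of features that differed: H2BC11 (TC06001385) lay at 9.44 and 9.58 in K562 and between 6.78 and 7.38 in the other lines, while H2BC11 (TC06001386) lay at 9.61 and 9.72 in K562 and between 8.51 and 8.94 elsewhere. Both features were highest in K562, but the difference of MV4-11 from K562 was -2.69 in one and -0.97 in the other.

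**Figure D4:**
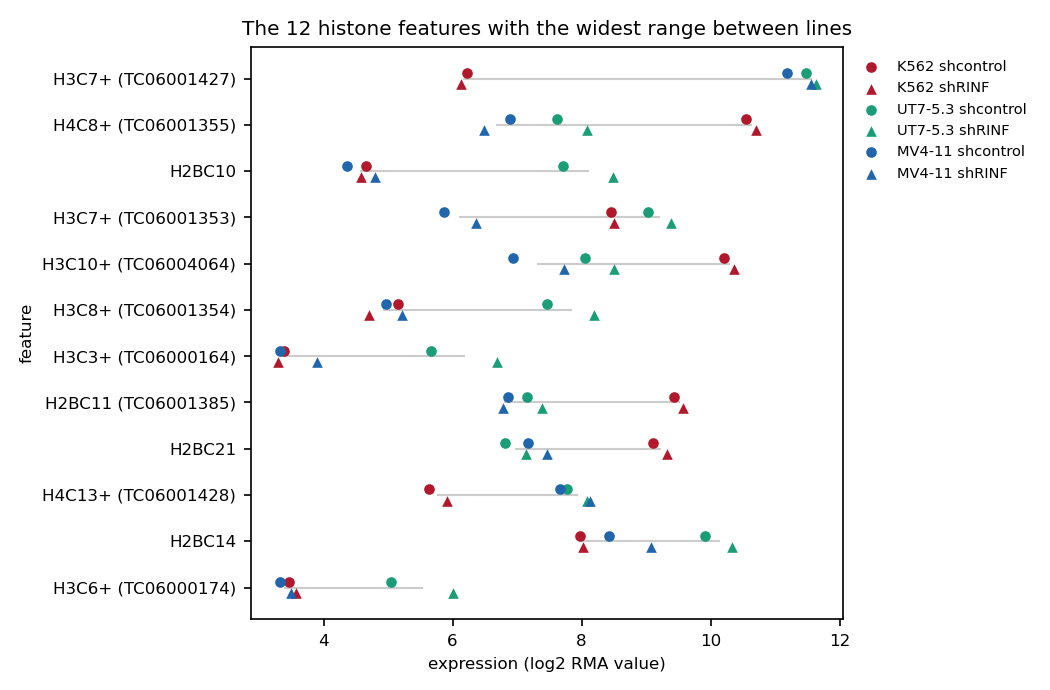
Levels on the 6 arrays (horizontal axis, log2 RMA value) of the 12 features with the widest range between lines (rows), coloured by line, with circles for shcontrol and triangles for shRINF. H3C7+ (TC06001427) spans 6.13 to 11.64. The arrays of a line do not always lie close together: H3C3+ (TC06000164) lies at 5.66 with shcontrol and 6.69 with shRINF in UT7-5.3.

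H2A and H2B genes often face each other across a shared promoter region. By RefSeq starts, 11 H2A and H2B pairs had starts within 500 bases, and 5 pairs had a feature of its own for both genes. Levels of different probes are not on a common scale, so only differences between arrays are set side by side. For H2AC13 and H2BC13, with starts 244 bases apart, UT7-5.3 lay below K562 by 0.87 and 0.55, and MV4-11 by 1.08 and 0.92. For H2AC20 and H2BC21, 236 bases apart, UT7-5.3 lay below K562 by 0.57 for the H2A gene and by 2.24 for the H2B gene. For H2AC14 and H2BC14, 245 bases apart, H2BC14 was 2.13 higher in UT7-5.3 than in K562. The H2AC14 feature stayed between 2.79 and 3.28 on all arrays, where a value cannot be told from background. With shRINF, both partners of the H2AC20 and H2BC21 pair and of the H2AC13 and H2BC13 pair were higher in every line. H2AC25 was higher by 0.15, 0.21 and 0.22, whereas its neighbour H2BC26, 230 bases away, gave -0.09, 0.09 and -0.05. Differences between partners were not tested.

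**Figure D5:**
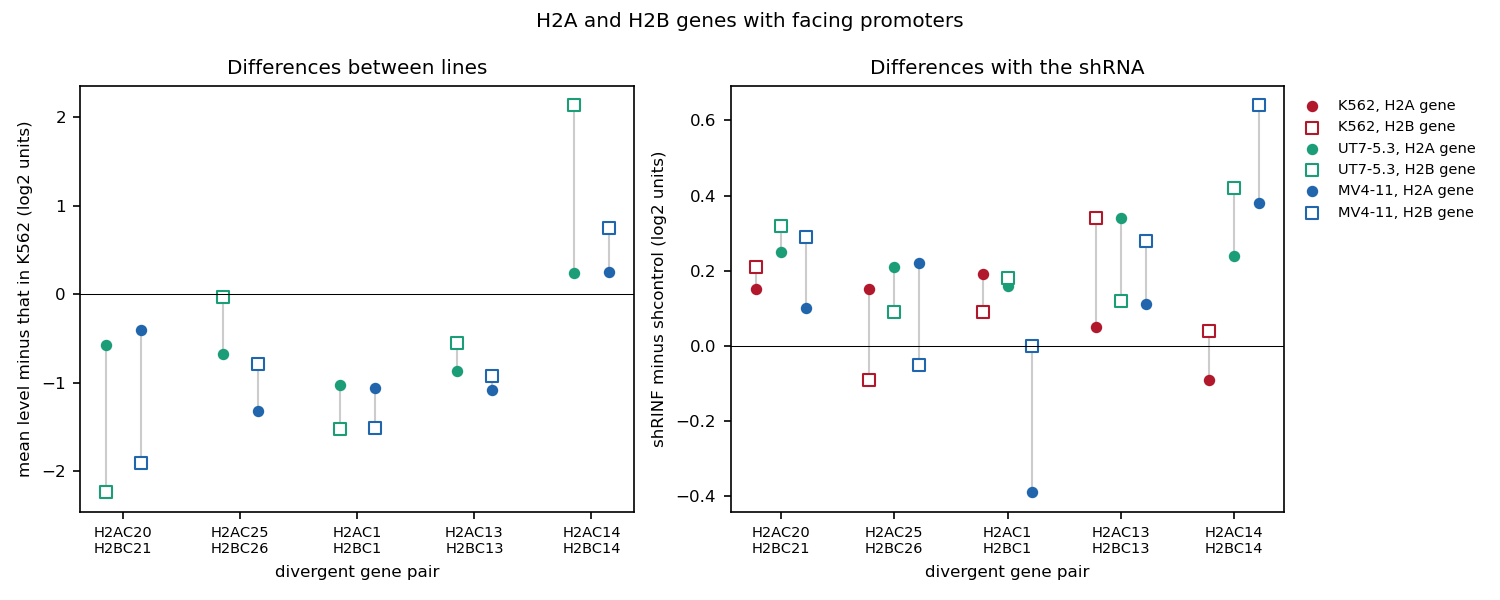
Differences in log2 units for the 5 facing gene pairs (horizontal axis), filled circles for the H2A gene and open squares for the H2B gene, joined by a grey line: left, mean level in UT7-5.3 (green) and MV4-11 (blue) minus that in K562; right, shRINF minus shcontrol in K562 (red), UT7-5.3 and MV4-11. In the left panel, the partners lie far apart for H2AC20 with H2BC21 and for H2AC14 with H2BC14, where the H2AC14 level may be background. In the right panel, both partners lie above 0 in all 3 lines for H2AC20 with H2BC21 and H2AC13 with H2BC13.

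Genes that make, carry or replace the replication-dependent histones were set beside them, counting only genes with a feature that lists no other gene. Of the 23 listed genes of histone pre-mRNA processing, 21 had such a feature, 0 passed the test in either direction, and 5 were higher and 0 lower in all 3 lines (against 11.8% and 14.9% of all features), with medians of 0.01, 0.14 and 0.04. NPAT, the coactivator of histone genes, was the one with the largest mean difference, 0.25 ± 0.29, going from 8.61 to 8.58 in K562, from 8.05 to 8.59 in UT7-5.3 and from 7.30 to 7.53 in MV4-11. CASP8AP2, a further factor of histone gene transcription, was next with 0.01, 0.41 and 0.08. SLBP, the stem-loop binding protein, gave 0.01, 0.11 and -0.01. These medians lay below those of the histone features in each line.

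Of 24 genes of histone chaperones and import, 22 had a feature of their own, and 0 passed in either direction. Their medians were 0.03, 0.10 and 0.10, and 5 were higher and 0 lower in all 3 lines (against 11.8% and 14.9% of all features). HJURP, the chaperone of the centromeric H3 variant, gave 0.12, 0.24 and 0.32, and ATRX, which deposits H3.3 with DAXX, gave 0.00, 0.70 and -0.08. Of 15 replication-independent variants, 8 had a feature of their own, and 0 passed. In all 3 lines, 4 of the 8 were higher and 0 lower (against 11.8% and 14.9% of all features). H2AJ is listed only with H2AC20, in the feature described above. H2AX, the variant phosphorylated at DNA breaks, whose transcripts can also end in a stem-loop, went from 8.59 to 9.0, from 7.93 to 8.39 and from 7.34 to 7.72. Its difference of 0.42 ± 0.04 (unadjusted p 7.32e-04, adjusted p 0.806) was of nearly equal size in the 3 lines. CENPA, the centromeric H3 variant, gave 0.07, 0.22 and 0.21.

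Genes of the G1/S transition and S phase had smaller median differences than the histone features. Of 27 listed, 25 had a feature of their own, 0 passed in either direction, and 3 were higher at an unadjusted p under 0.05 (against 2.92% of all features). In all 3 lines, 8 of the 25 were higher and 0 lower (against 11.8% and 14.9% of all features), so upward differences were not particular to the histone features. Their medians were 0.06 in K562, 0.06 in UT7-5.3 and 0.12 in MV4-11, beside 0.08, 0.26 and 0.29 for the histone features. GINS2, a subunit of the replicative helicase, gave 0.16, 0.41 and 0.25, and POLA1, the catalytic subunit of the priming polymerase, gave 0.00, 0.49 and 0.19. The part of the cell cycle in the histone differences was not tested.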

How the data were processed

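Total RNA of 6 cultures was measured on 6 whole-transcript arrays. The deposited values are log2 expression values, which the authors computed with RMA (Affymetrix Expression Console), as the submitters' processing notes record. Software versions and the annotation's genome build were not given in these sources. RMA brings all arrays to a common distribution, which takes out any shift common to most transcripts. The log base was taken as 2 from the method and the range of values. The file holds no detection calls, and arrays give no counts, so the number of arrays limits the precision.

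Members were found through the platform annotation, and RefSeq (GRCh38.p14) gave chromosomes and promoters. The members and gene lists were chosen with earlier results of these data known. All 67528 features were fitted with limma 3.58.1 (R 4.3.3; lmFit, eBayes), with the cell line as a block (2 residual and 4.19 prior degrees of freedom), and p-values were adjusted by Benjamini-Hochberg at 0.05. Pairing follows the cell line in the labels, which give no replicate numbers. Lines were compared with the shRNA as a covariate, at 0.05 and 1 log2 unit. Within lines there was no test, and 0.25 log2 units was used for counts. The fit was tested on simulated data.

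Named in each family were the 4 features of mean level 5 or more with the largest absolute mean difference, the 2 with the highest mean level and the 2 with the widest range between lines, and in each context list the 2 genes with the largest absolute mean difference. Named after their values were seen were SLBP, LYZ, MPO, ITGA2B, H2BC4+, H1-1, H1-3, H1-6, H2AC1, H2AC13, H2AC14, H2AC21, H2AC25, H2BC1, H2BC3, H2BC5, H2BC13, H2BC21, H2BC26, H2AC20+ (TC12000197), H3C3+, H3C4+, H3C6+, H3C8+, H4C6+, H4C16+ and H2BC11 (TC06001386). CSF2RA, TAL1, EPOR and EPCAM were also named after their values were seen. Alternatives covered the filter, 1 feature per gene, normalization, the prior, the block, leaving out each line, and the fold minimum.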

Additional observations from a re-analysis of the deposited data

Results flagged for a closer look

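Features whose differences had opposite signs of 0.25 log2 units or more in different lines are listed here, each from 1 array per group, and the difference between lines was not tested. H1-3, a somatic linker histone of low level on these arrays, gave -0.41 in K562 and 0.41 in MV4-11. H3C8+ (TC06001354), which lists 10 H3 genes, gave -0.44 in K562, 0.72 in UT7-5.3 and 0.26 in MV4-11. H4C8+ (TC06001355), which lists 14 H4 genes, gave 0.47 in UT7-5.3 and -0.40 in MV4-11.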

How the results depend on the processing

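No member passed the test across lines in the main setting or in any of the 11 alternatives of the fit. The median difference over the members was 0.18 to 0.27 across them, beside 0.20. The number of members higher at an unadjusted limma p under 0.05 was 34 in the main setting. With 1 feature per gene it was 14 of 23, against 4.28% of all 15330 genes. It was 26 with quantile normalization, 28 with cyclic loess and 36 with median centring. No share over all features was computed for these normalizations. The number was 0 with no replicate block and 11 to 30 when a line was left out. Of 543 values of 53 single features, 17 turned their sign and 0 passed the threshold, with adjusted p from 0.38 to 1. H2BC26, at -0.02, became 0.0067 with median centring, 0.012 with cyclic loess and -0.07 to 0.02 when a line was left out. H2AC19+ (TC01001174) became -0.0044 with cyclic loess. The other features of mean level above 11 kept their sign but were smaller with cyclic loess. It gave 0.06 for H2AC20, 0.02 for H2BC12 and 0.03 for H4C3, beside 0.17, 0.13 and 0.13. For H1-4 and H4C15+ (TC06001424) it gave 0.03 and 0.06, beside 0.13 and 0.16. Median centring and cyclic loess gave 0.02 and 0.0043 for H4C6+ (TC06000175) and 0.01 and 0.0011 for H2AC1. Leaving out a line gave -0.09 to 0.49 for H3C8+ (TC06001354), -0.12 to 0.32 for H4C8+ (TC06001355), -0.13 to 0.01 for H1-1, -0.12 to 0.29 for H1-3, -0.05 to 0.19 for H2BC4+ (TC06001347), -0.075 to 0.065 for H4C6+ (TC06000175), -0.015 to 0.03 for H4C16+ (TC12001272) and -0.115 to 0.175 for H2AC1. The cause of these turns was not tested.

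The count of members higher in all 3 lines was 18 of 31 among features of 1 gene. The count lower in all 3 lines was 0 with quantile normalization, median centring and cyclic loess, and at mean level 5 or more. At that level, 1 member was lower by 0.25 or more in K562 and 1 in MV4-11. At 0.5 log2 units, 0 were higher and 0 lower in K562 (against 0.367% and 0.385% of all features), 6 were higher in UT7-5.3 (against 2.41%), and 15 were higher and 0 lower in MV4-11 (against 1.02% and 0.988%). With 1 feature per gene (23 members), 3 were higher and 3 lower in UT7-5.3 against K562 (5.85% and 4.01% of all genes), 0 higher and 6 lower in MV4-11 against K562 (8.07% and 7.06%), and 4 lower in MV4-11 against UT7-5.3 (7.08%). With no fold minimum, 11 were higher and 37 lower in UT7-5.3 against K562, 4 higher and 45 lower in MV4-11 against K562, and 3 higher and 24 lower in MV4-11 against UT7-5.3. The 13 features below a mean level of 5 may be near background in some or all lines, and features listing several genes cannot be tied to a locus.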
